A study of Mus musculus with 6 samples.

Results

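The comparison set H3K27ac in the paw of a mouse with collagen-induced arthritis against H3K27ac in a control paw, gene by gene. It used 2 of the 6 sections of the study, and its members were the 11130 genes held by the tables of both sections, of 19378 genes in the control table. The study placed mouse tissue sections on DNA arrays whose spots carry pairs of barcodes, so that chromatin fragments cut out by a transposase at an antibody-bound histone mark keep the position they came from. The other 4 sections were of embryo and brain.

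The arthritis section came from the paw of an adult mouse labelled as collagen-induced arthritis at 42 days, and the control section from an adult mouse labelled as control at 42 days. Strain, sex, the date from which the days were counted and any treatment of the control mouse were not given in the sources used here. Both paws had been fixed in paraformaldehyde, decalcified in acid and embedded in paraffin, and the sections, 4 µm thick, were taken at the talus of the ankle. Each group was 1 section, so no difference below had a spread between animals to be set against, no test was made, and every value describes these sections. A section mixes all cells lying over a spot, and more cells of a type could not be told apart from more signal per cell.

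H3K27ac is the acetylation of lysine 27 on histone H3 and is found at active promoters and enhancers. In collagen-induced arthritis, mice immunised with type II collagen develop an inflammation of the joints in which neutrophils, macrophages and lymphocytes enter the synovium. Synovial fibroblasts, osteoclasts and proteases then damage cartilage and bone, while new bone can form at the margins of the joint.

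The arthritis section held 5344438 recovered reads in 943 spots, with 583 to 14963 reads per spot and a median of 5296. The control section held 5981684 reads in 554 spots, with 16 to 34488 per spot and a median of 10114.5. These control values cover all 19378 genes of its table, and on the 11130 shared genes it held 4505086 reads. Reads were recovered here from the ranks of the deposited values, because those values followed the place of a gene in the table. Spearman's rho across the genes of each table between that place and the mean deposited value was 0.44 in the arthritis section and 0.42 in the control section. For recovered reads it was -0.10 in each. Over the shared genes alone, the rho of the deposited control values was 0.38. The log2 ratio of the 2 sections was close to free of it, with a rho of 0.003 for recovered reads over 11130 genes and 0.07 for deposited values. Levels are given as a gene's reads over those of the mean shared gene of the section, and the log2 ratio is arthritis over control with 0.1 added to each level. The window in which reads were counted per gene was not given in the sources used here, so that levels are compared within a gene and not between genes.

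**Figure D1:**
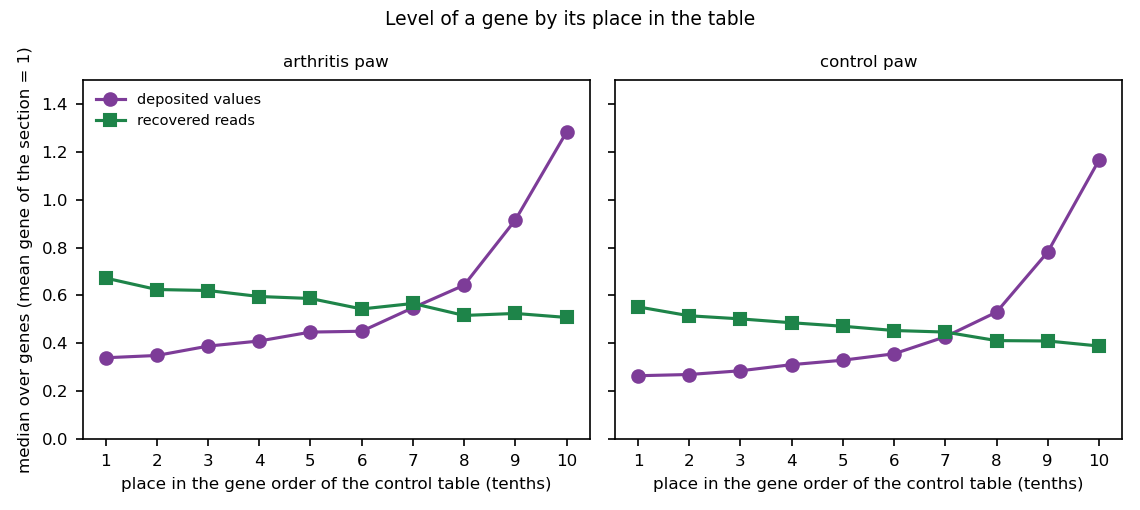
Median level over genes (vertical axis, mean gene of the section = 1) along the gene order of the control table, split into 10 equal groups of genes (horizontal axis), for the deposited values and the recovered reads of the arthritis and the control paw. Deposited values rise along the order from 0.34 to 1.28 in the arthritis paw and from 0.265 to 1.16 in the control paw, while recovered reads fall from 0.673 to 0.508 and from 0.552 to 0.389.

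Most genes had like levels in both paws. The log2 ratio had a median of 0.11 over the 11130 genes, and 58.8% of genes lay within 0.5 of that median. A log2 ratio of 1 or above was reached by 1290 genes (11.6%) and one of -1 or below by 877 genes (7.88%), together 19.5% of all genes. At a ratio of 4 or beyond there were 30 genes on the arthritis side and 59 on the control side. Across genes, log2 levels of the paws correlated with a Pearson r of 0.58 and levels with a Spearman rho of 0.66.

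Within the 2 sections the ratio depended little on which spots were used, which says nothing of other animals. Computed from odd and from even array columns alone, it correlated across genes with r = 0.96, and 1117 of the 1290 higher genes and 746 of the 877 lower genes were past the threshold in each set of columns. Control array columns 1, 5, 9, 13, 17 and 21 held 23.3% of the control spots and 12.8% of the control reads. Without them 1266 of the higher and 802 of the lower genes were still past the threshold. In these columns 561 genes (5.04% of all) had at least 2 times their share of reads, and among the lower genes 129 (14.7%) did. Ratios without these columns are given below for single genes that were rich in them.

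**Figure D2:**
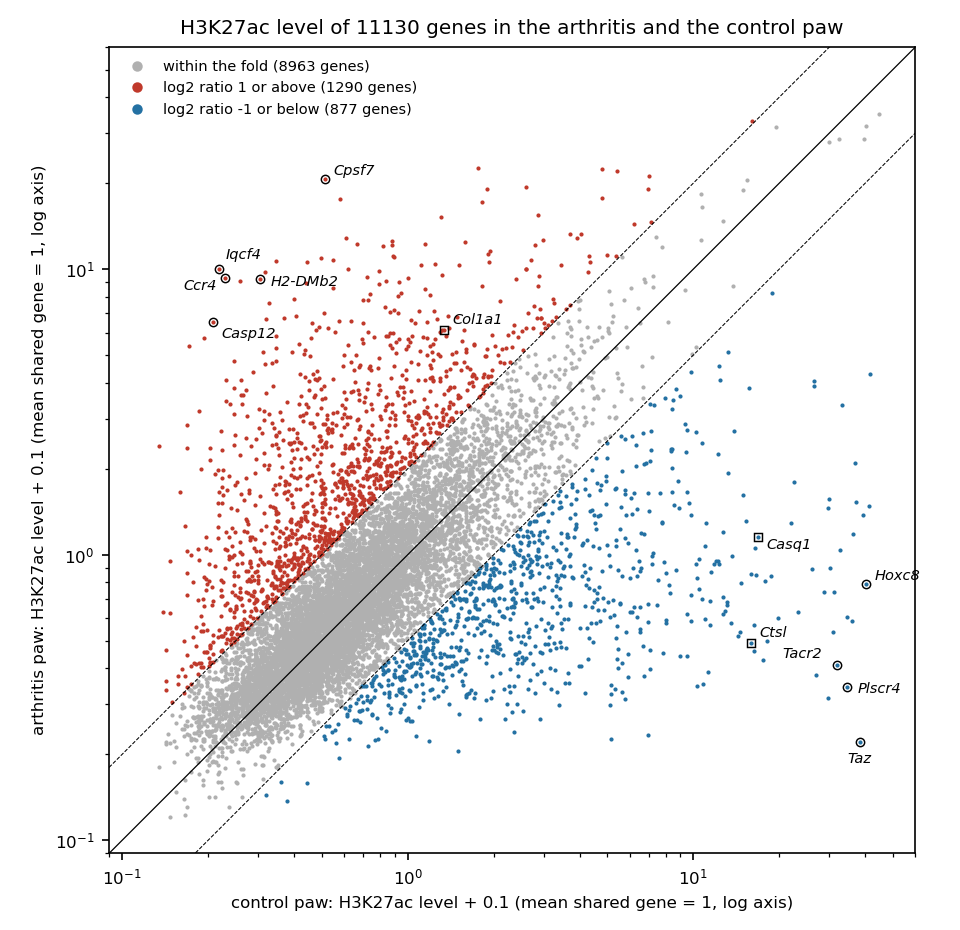
Level of each of the 11130 shared genes plus 0.1 in the control paw (horizontal, log axis) and the arthritis paw (vertical, log axis), with the mean shared gene of each section at 1. The solid line marks equal levels and the dashed lines a log2 ratio of 1 and -1, and the 1290 higher and 877 lower genes lie beyond them, with circles on genes of the extremes and squares on genes of the lists.

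The highest ratios belonged to genes of unlike roles. Iqcf4, of a family of proteins with calmodulin-binding IQ motifs, led with 4759 reads in the arthritis section and 48 in the control section, a log2 ratio of 5.52. Its 95% counting interval, exact and without the added 0.1, ran from 5.98 to 6.83. Ccr4, the receptor on T cells for the chemokines CCL17 and CCL22, followed with 4442 against 52 reads and a ratio of 5.36. Cpsf7, a subunit of the cleavage factor of pre-mRNA 3′ end processing, had 9904 against 168 reads, a ratio of 5.33. Casp12, of the inflammatory caspases, had 3094 against 44 reads, and H2-DMb2, a chain of the chaperone that loads peptides on MHC class II, had 4372 against 83. Both stood near a ratio of 5, at 4.97 and 4.92. The highest 15 also held Dmap1, Lao1, Nup54, Rnf32, Antxrl, Psat1, Tmem126a, Fstl5 and Tfap4, with ratios of 4.40 to 5.13. Among them are a nuclear pore subunit (Nup54) and an enzyme of serine synthesis (Psat1).

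The lowest ratios lay farther from 0. Taz, the X-linked gene of tafazzin, which remodels cardiolipin in mitochondria, had 58 reads in the arthritis section and 15484 in the control section, a ratio of -7.44 (counting interval from -8.70 to -7.94). Hoxc8, a homeobox gene of trunk patterning, had 332 against 16285 reads and a ratio of -5.67. Tacr2, the receptor for neurokinin A, had 150 against 12815 reads and a ratio of -6.27. Plscr4 (a phospholipid scramblase), Isy1 and Cpsf2 (factors of RNA processing) stood at -6.66, -6.56 and -6.14. The remaining 9, at -5.14 to -5.95, were Slc25a35, Cep44, H2al3, Pdzd3, Mrpl11, Pdha1, Suclg2, Ksr1 and Vps26a. Pdha1 and Suclg2 are subunits of enzymes of mitochondrial carbon metabolism and Mrpl11 is a protein of the mitochondrial ribosome.

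Control sums of all 15 lowest genes and arthritis sums of 6 of the 15 highest were lower bounds, because many of their reads lay beyond the ranks at which numbers could be recovered exactly. With those reads estimated from the common list of values, Taz moved to -8.21 and Hoxc8 to -6.65, and the ratios of the highest 15 changed by a median of 0.01. These ratios include the added 0.1 and are not to be set against the counting intervals. Each set of 15 lay on 9 chromosomes. In the 6 sparse control columns the highest genes held 0.150 to 2.62 times their share of control reads and the lowest genes 0.472 to 0.717 times.

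Reads of the extremes were found in most spots of the section in which they were high, but not evenly. Reads of the 15 highest genes were found in 86.9% to 98.7% of arthritis spots and in 4.87% to 29.4% of control spots. Reads of the 15 lowest were found in 94.0% to 99.5% of control spots and in 6.04% to 28.1% of arthritis spots. The 10 richest spots of a gene held 2.70% to 4.55% of its arthritis reads among the highest and 3.89% to 5.99% of its control reads among the lowest. Moran's I measures how alike side-by-side spots are in a gene's share of the spot's reads. In the control section it was 0.149 to 0.304 for the 15 lowest genes, against a median of 0.0008 over shared genes. For the 15 highest it was 0.006 to 0.153 in the arthritis section, against 0.0005. The part of the lower-bound reads in this was not tested. Over all genes, the median share of spots with a read was 24.4% in the arthritis section and 29.6% in the control section. The highest genes thus all lay below the control median, and the lowest genes on both sides of the arthritis median. All 15 highest genes were in the top 10% of the arthritis section and none in the top 10% of the control section. The extremes were picked by the ratio of these same reads, so these shares and ranks follow largely from the choice. They are not a finding beyond the ratio. A rank within a section also sets genes with an unknown counting window against each other, so ranks describe place only. In the embryo H3K27ac section, of the same mark in another tissue, the highest 15 had a median rank of 30.2% (with the gene of most reads near 100%) and the lowest 15 of 55.2%, with 1 and 0 genes in the top 10%.

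**Figure D3:**
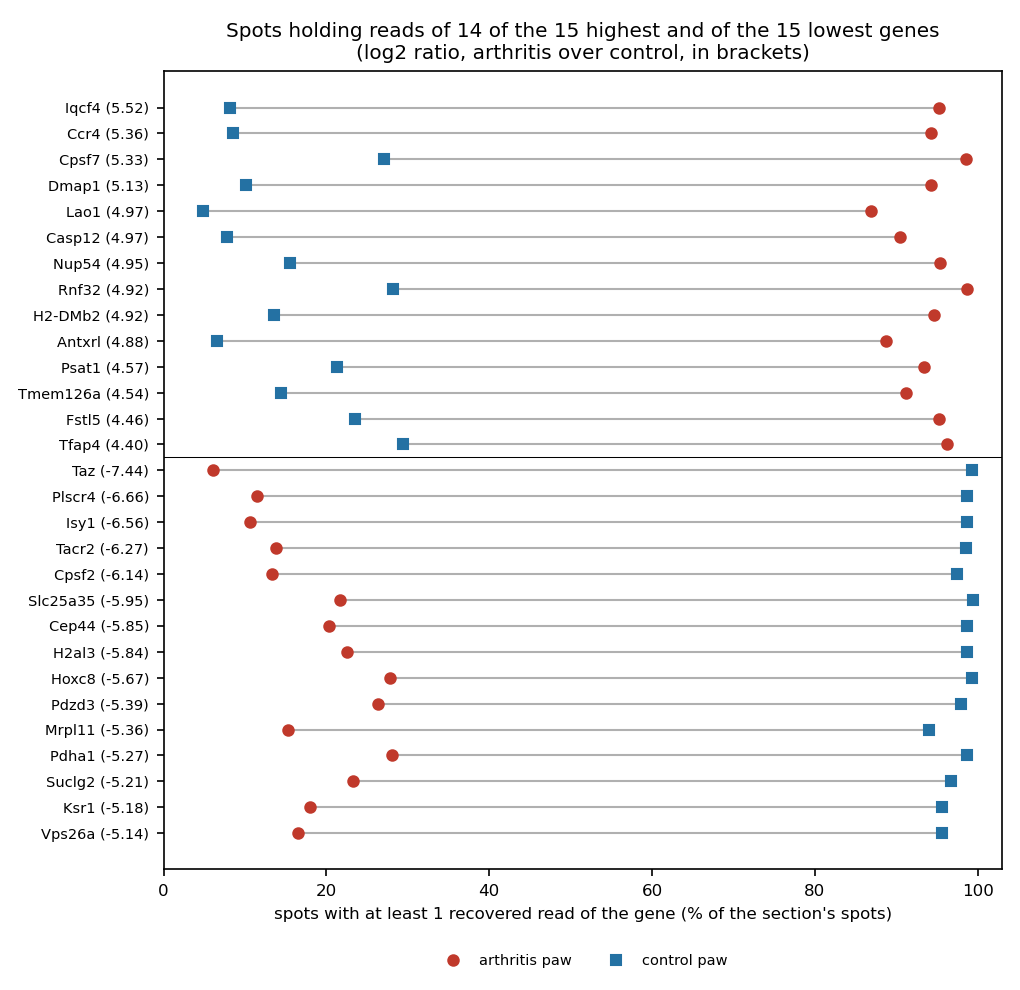
Share of spots with at least 1 recovered read (horizontal axis, % of spots) of 14 of the 15 highest genes (upper block) and the 15 lowest genes (lower block), with a circle for the arthritis paw and a square for the control paw. The circles of the highest genes lie between 86.9% and 98.7% and those of the lowest genes between 6.04% and 28.1%.

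Among the lowest genes 4 had the same control reads, to within 5%, as a neighbour on the chromosome, so that the signal could not be assigned to 1 gene of the pair. These were Taz with Dnase1l1, Isy1 with Cnbp, Cep44 with Fbxo8 and H2al3 with H2ap. The control sums of Taz, Isy1, Cep44, H2al3, Dnase1l1, Fbxo8 and H2ap were lower bounds, so that equal recovered sums need not be equal reads. Genes of different chromosomes also came as close, such as Plscr4 on chromosome 9 with 13983 and H2al3 on the X with 13965. None of the highest 15 had such a neighbour in the arthritis table. That table lacks 8248 of the control genes, Dnase1l1, Fbxo8 and H2ap among them, so the 2 sides are not alike in this. Dnase1l1, a gene of the DNase I family, had 15517 recovered control reads against the 15484 of Taz, both lower bounds, and was not in the arthritis table. In the RefSeq annotation of build GRCm38.p6, which is not known to be that of the tables, the start sites of this pair face away from each other 385 bases apart. The annotation holds a further start of Dnase1l1, whose window at chrX:74281577-74281876 does not overlap that of Taz. The windows of the closer starts, of 250 bases before to 50 after each, are shown because they overlap by 116 bases, which are in capitals. They lie at chrX:74282468-74282767 on the plus strand for Taz and at chrX:74282284-74282583 on the minus strand for Dnase1l1.
Taz: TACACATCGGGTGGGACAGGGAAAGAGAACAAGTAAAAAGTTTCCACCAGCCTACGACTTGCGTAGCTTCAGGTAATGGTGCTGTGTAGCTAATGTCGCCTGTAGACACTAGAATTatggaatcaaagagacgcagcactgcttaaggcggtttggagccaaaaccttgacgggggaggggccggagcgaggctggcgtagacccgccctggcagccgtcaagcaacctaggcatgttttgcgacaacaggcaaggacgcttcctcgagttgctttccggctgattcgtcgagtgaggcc
Dnase1l1: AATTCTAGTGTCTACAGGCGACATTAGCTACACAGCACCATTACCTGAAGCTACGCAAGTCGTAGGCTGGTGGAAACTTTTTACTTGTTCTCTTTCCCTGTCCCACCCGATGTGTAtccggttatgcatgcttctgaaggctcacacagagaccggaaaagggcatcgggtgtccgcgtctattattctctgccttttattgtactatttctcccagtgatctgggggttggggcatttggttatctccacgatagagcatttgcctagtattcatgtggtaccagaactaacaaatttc
Equal sums were more frequent between genes with close starts than between distant ones. Among neighbouring pairs in which the larger control sum was at least 1000, 17 of 47 pairs with starts under 500 bases apart had the same reads (36.2%), against 5 of 159 at 5000 to 20000 bases (3.14%) and 6 of 897 farther apart (0.669%).

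The promoters of 3 of the highest genes are shown to compare their content of CpG, the letters CG on either strand, which are in capitals. Ccr4 and Casp12 have 3 each in 300 bases, and 31.9% of the 27025 promoters of the table have 3 or fewer. Cpsf7 has 33, and 8.27% have 33 or more. The genes with the largest excess in the arthritis section thus had both CpG-poor and CpG-rich promoters. The windows are from RefSeq on build GRCm38.p6, at chr9:114496495-114496794 on the minus strand for Ccr4, chr9:5345226-5345525 on the plus strand for Casp12 and chr19:10524994-10525293 on the plus strand for Cpsf7.
Ccr4: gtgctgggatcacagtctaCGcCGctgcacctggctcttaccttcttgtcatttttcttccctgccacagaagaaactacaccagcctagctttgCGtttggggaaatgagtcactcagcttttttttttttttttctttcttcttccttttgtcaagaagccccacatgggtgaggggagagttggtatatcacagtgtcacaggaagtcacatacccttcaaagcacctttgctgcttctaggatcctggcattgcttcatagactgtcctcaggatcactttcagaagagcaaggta
Casp12: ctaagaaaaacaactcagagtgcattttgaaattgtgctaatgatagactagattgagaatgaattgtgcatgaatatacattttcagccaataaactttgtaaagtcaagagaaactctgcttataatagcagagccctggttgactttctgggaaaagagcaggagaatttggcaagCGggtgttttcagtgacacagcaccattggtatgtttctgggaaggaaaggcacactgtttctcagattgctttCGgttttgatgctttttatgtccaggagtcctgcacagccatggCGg
Cpsf7: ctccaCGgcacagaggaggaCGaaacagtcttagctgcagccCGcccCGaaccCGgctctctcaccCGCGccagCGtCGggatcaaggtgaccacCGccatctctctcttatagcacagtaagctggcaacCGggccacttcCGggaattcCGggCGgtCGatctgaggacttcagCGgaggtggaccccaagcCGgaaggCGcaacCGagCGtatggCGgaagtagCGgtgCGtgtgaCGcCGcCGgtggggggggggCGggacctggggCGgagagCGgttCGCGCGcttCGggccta

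The gene lists for the cells and processes of an arthritic joint followed the distribution of all genes. Of 422 different members of 33 lists in both tables, 50 had a ratio of 1 or above (11.8%, against 11.6% of all genes) and 37 of -1 or below (8.77%, against 7.88%). A further 205 members were in the control table alone. The median of a list lay above that of all genes in 14 lists, and its counting interval lay wholly above it in 3 (epidermis, T and NK cell, interferon and JAK-STAT) and wholly below it in 6 (neutrophil, B and plasma cell, synovial fibroblast, tendon, nerve and Schwann cell, limb position). This interval covers counting error only and not the spread between genes, whose quartiles over all genes were -0.28 and 0.51. The interferon median exceeded that of all genes by 0.39, but by 0.0063 over genes at or above the median level. Of the list members named below, the arthritis sums of Xbp1 and Dkk3 and the control sums of Casq1, Ctsl, Jun, Acp5 and Krtdap were also lower bounds.

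**Figure D4:**
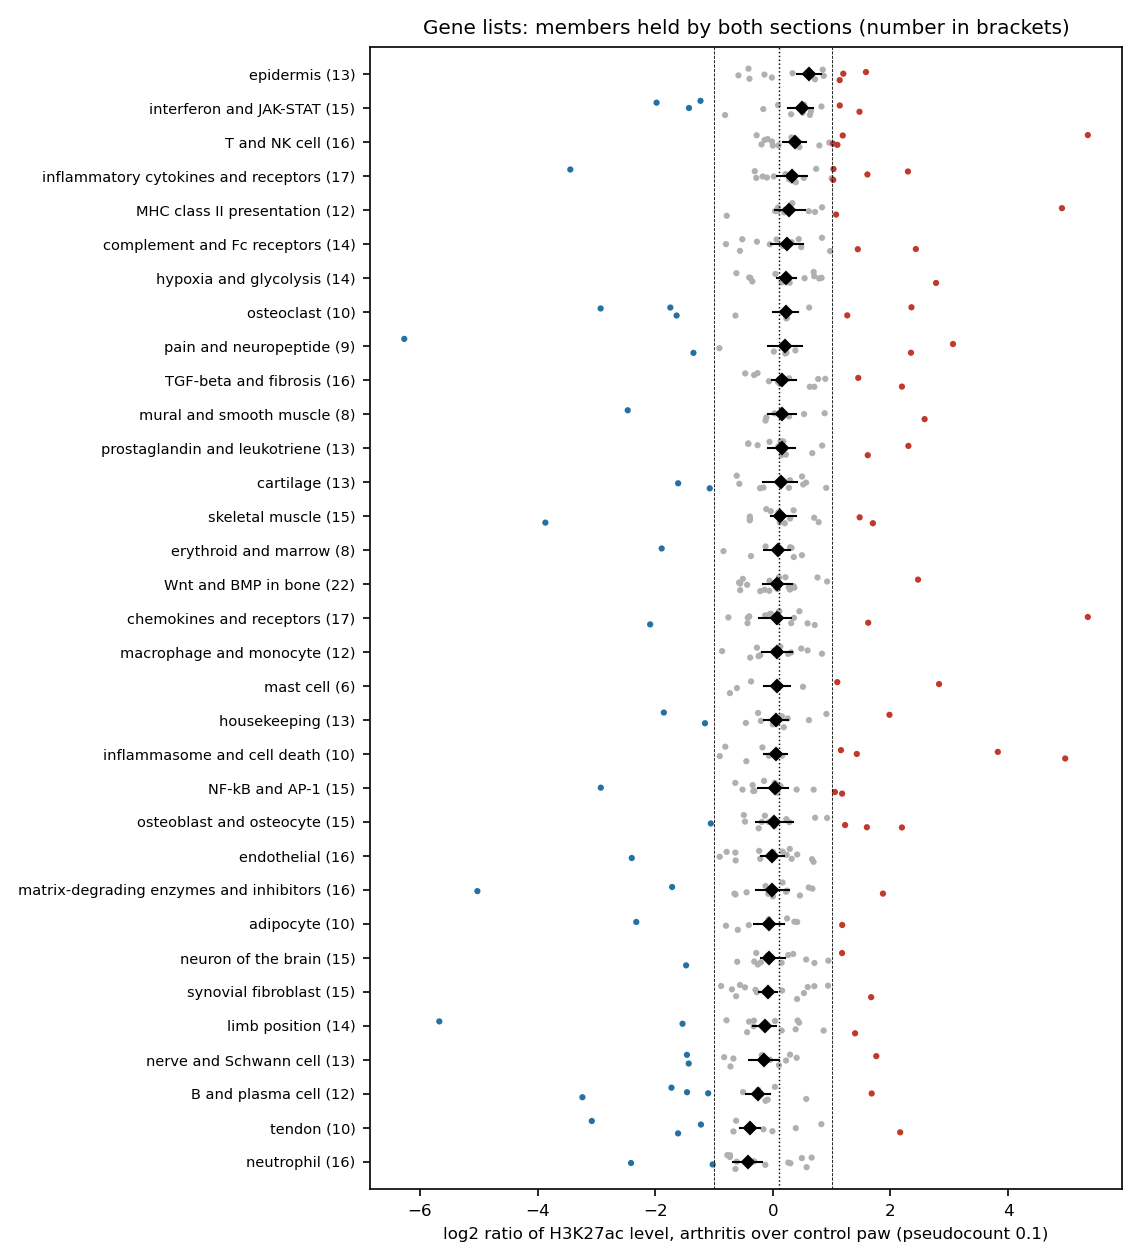
Log2 ratio of H3K27ac level, arthritis over control (horizontal axis), of each member of 33 gene lists (points, with members past the threshold of 1 or -1 in colour), ordered by list median (diamond, with a bar for its 95% counting interval). The dotted line is the median of all genes at 0.11, around which the list medians lie between -0.42 for neutrophil genes and 0.61 for epidermis genes.

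Among bone genes the genes of osteoblasts and of osteoclasts held high and low members side by side. Col1a1, the chain of type I collagen that makes up most of bone matrix, had 2897 reads in the arthritis section and 502 in the control section, levels of 6.03 and 1.24 and a ratio of 2.19. Its reads lay in 90.2% of arthritis spots and 52.9% of control spots. Col1a2, the partner chain, was at -0.19 from 42 against 46 reads. Phex, an osteocyte endopeptidase that acts on phosphate balance, had 284 against 79 reads and a ratio of 1.23. Sost (sclerostin), the osteocyte inhibitor of Wnt signalling, was at 0.92, and Runx2 and Sp7, the transcription factors that set the osteoblast fate, at -0.14 and 0.23. Tnfrsf11b, the gene of osteoprotegerin, which blocks the osteoclast factor RANKL, was at -1.05 with 127 against 266 reads. In all, 3 of 15 osteoblast and osteocyte genes were past 1 and 1 was past -1, with a median of 0.03.

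Osteoclast genes split likewise, with 2 of 10 past 1 and 3 past -1 around a median of 0.22. Car2, the carbonic anhydrase that supplies acid for resorption, had 994 against 131 reads and a ratio of 2.36, and Nfatc1, the master transcription factor of osteoclasts, 1.26. Itgb3, the integrin chain of their sealing zone, had 219 against 1673 reads and a ratio of -2.93. Mitf, a transcription factor, and Dcstamp, needed for the fusion of precursors, were at -1.74 and -1.64, while Acp5, the tartrate-resistant phosphatase, was at 0.23. Cathepsin L (Ctsl), a lysosomal protease, had 187 against 6404 reads and a ratio of -5.02, the lowest of the enzymes and inhibitors of matrix breakdown.

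Cartilage genes had a median close to that of all genes, and tendon genes a lower one. Of 13 cartilage genes, with a median of 0.13, none was past 1 and 2 were past -1, namely Col11a2, a collagen of cartilage fibrils, at -1.61 and Sox9, the chondrocyte transcription factor, at -1.07 with 330 against 630 reads. Cilp, a cartilage matrix protein, was highest at 0.91. Col2a1, the type II collagen used to immunise in this model, was at -0.16 with 204 against 197 reads. Of 10 tendon genes 3 were past -1, with a list median of -0.39. Tnc (tenascin C) had 243 against 2032 reads and a ratio of -3.08, Scx (scleraxis, the tendon transcription factor) 636 against 1722 reads and -1.61, and Bgn (biglycan) -1.22. Egr1, an early response factor listed for tendon, stood opposite at 2.16 with 2534 against 445 reads.

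Matrix-degrading enzymes showed few large ratios. Of 16 members 1 was past 1, Adamts9, a proteoglycan protease, at 1.87, and 2 were past -1, Ctsl and Timp2, an inhibitor of metalloproteinases, at -1.71. The collagenase-activating Mmp3 was at -0.03 with 85 against 74 reads, the aggrecanases Adamts4 and Adamts5 were at -0.65 and 0.00, and Mmp9 was at -0.64 from 47 against 84 reads.

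Synovial fibroblast genes had a median of -0.08, with 1 of 15 past 1 and none past -1. Cd44, the hyaluronan receptor, had 664 against 148 reads and a ratio of 1.67. Lum (lumican) and Twist1, a mesenchymal transcription factor, were at 0.59 and -0.70, and the activation markers Fap, Thy1 and Pdpn at -0.27, -0.30 and -0.47. Without the 6 control columns Pdpn was at -0.079. In the fibrosis list Postn (periostin) was at 1.45, and the 16 members had a median of 0.16.

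The neutrophil and the macrophage and monocyte lists had no member past 1, against 11.6% of all genes. With 16 and 12 members, these counts are too small to set the lists apart from all genes. Neutrophil genes had the lowest median of the 33 lists, -0.42 over 16 members, and 2 were past -1. Cebpe, a transcription factor of late granulocytes, had 252 against 1305 reads and a ratio of -2.41. Its control reads lay in the 6 sparse control columns at 3.61 times their share, and without these columns the ratio was -1.74. Ncf1, a subunit of the phagocyte oxidase, was at -1.02, and in the arthritis section it had the same reads as its neighbours Castor2 and Clip2. S100a9, the abundant neutrophil calprotectin chain, was at -0.61 with 129 against 188 reads, and Elane, neutrophil elastase, at -0.77. On the other side, 5 of the 16 lay above the median of all genes, among them Ncf4, a further oxidase subunit, at 0.66 and Mpo, myeloperoxidase, at 0.57. Of 12 macrophage and monocyte genes none was past the threshold in either direction. Fcgr1, the high-affinity IgG receptor, was highest at 0.84 and Spi1, the PU.1 factor, lowest at -0.86. The list median was 0.07, beside 0.11 for all genes.

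The medians of the lymphocyte lists stood on opposite sides of that of all genes, both inside the quartiles of all genes. T and NK cell genes had a median of 0.38 with 4 of 16 past 1 and none past -1. Besides Ccr4 these included Zap70, a kinase of the T cell receptor, at 1.19 and Nkg7, of cytotoxic granules, at 1.02. Zap70 had the same arthritis reads as its neighbour Actr1b. Cd4 was at 0.00 with 402 against 339 reads and Foxp3, of regulatory T cells, at 0.44. B and plasma cell genes had a median of -0.25 with 1 of 12 past 1 and 4 past -1. Ms4a1, the gene of CD20, had 267 against 2465 reads and a ratio of -3.24, and Tnfrsf17 (BCMA), Xbp1 and Cd79a were at -1.72, -1.46 and -1.10. Tnfrsf13c, the receptor for the survival factor BAFF, was at 1.68 with 2569 against 648 reads. Of 6 mast cell genes, with a median of 0.07, Cpa3, the mast cell carboxypeptidase, was at 2.83 with 797 against 60 reads. Hdc, which makes histamine, was at 1.10, while Gata2, Mcpt4 and Kit went the other way, at -0.73, -0.61 and -0.37.

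Cytokine genes had a median of 0.33, with 4 of 17 past 1 and 1 past -1. Il12b, the p40 chain shared by IL-12 and IL-23, had 2700 against 431 reads, levels of 5.62 and 1.07 and a ratio of 2.30. Osm (oncostatin M), Il33 and Lif were at 1.61, 1.03 and 1.03, and Il6, targeted in the treatment of arthritis, stood just below the threshold, at 1.00 after rounding, from 157 against 46 reads. Without the 6 control columns Il33 was at 0.99. Il17f, a Th17 cytokine, had 80 against 1134 reads and a ratio of -3.44, while Il1b was at -0.31 with 146 against 162 reads. Tnf was held by the control table alone.

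Chemokine genes had a median of 0.07. Cxcl12, which holds leukocytes in the synovium and marrow, was at 1.62 with 753 against 179 reads, and Ccl20, which draws Th17 cells through CCR6, at -2.09 with 175 against 758. The neutrophil chemoattractants Cxcl1, Cxcl2 and Cxcl5 were at -0.76, -0.05 and -0.43. In the NF-kB and AP-1 list Rel and Tnfaip3 (A20, an inhibitor of the pathway) were at 1.18 and 1.06. Jun had 178 against 1407 reads and a ratio of -2.93, which was -2.24 without the 6 control columns, where it held 3.64 times its share. Fos, its partner in AP-1, was at 0.69 with 1497 against 765 reads.

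Interferon and JAK-STAT genes had a median of 0.50, although 3 of 15 were past -1 and 2 past 1. Il6ra, the IL-6 receptor, had 1399 against 399 reads and a ratio of 1.47, and Irf9, a DNA-binding subunit of the type I interferon response, 1.14. Stat3, which acts below that receptor, was at -1.23 with 1204 against 2436 reads, Irf5 at -1.98 and the type I receptor chain Ifnar2 at -1.43. Without the 6 control columns Ifnar2 stood inside the threshold, at -0.997. For antigen presentation, Rfx5, which binds class II promoters, was at 1.07 beside H2-DMb2, but H2-Aa, H2-Ab1 and their activator Ciita were at 0.08, 0.04 and 0.09. Of 14 complement and Fc receptor genes 2 were past 1 and none past -1. C1ra, a protease of the C1 complex, was at 2.43 with 2546 against 365 reads and Fcgr4, an IgG receptor, at 1.44. The lowest was at -0.80, and 8 of the 14 lay above the median of all genes. The list median was 0.24, with a counting interval from -0.03 to 0.52 that holds the median of all genes.

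Some genes of single pathways had large ratios. Dkk3, of the dickkopf family of secreted Wnt regulators, had 5063 against 738 reads and a ratio of 2.47, the sole member past the threshold of 22 Wnt and BMP genes. Pla2g2a, a secreted phospholipase found in inflamed joints, and Ptgir, the prostacyclin receptor, were at 2.30 and 1.61, while Ptgs2, the inducible cyclooxygenase, was at 0.15. Epas1, the hypoxia factor HIF-2 alpha, had 2757 against 305 reads and a ratio of 2.77, and Hif1a was at -0.62, which was -0.23 without the 6 control columns. Of 10 genes of inflammasome and cell death 4 were past 1, with Ripk1, a kinase below the TNF receptor, at 3.83 from 1574 against 56 reads, and Bax at 1.43 beside Casp12. Casp1 and Casp8 were at -0.18 and -0.90, and the list median was 0.05. Among genes of pain fibres Trpa1, an irritant channel, was at 2.35 with 1157 against 159 reads, and P2rx3, an ATP-gated channel, at 3.06, although in the arthritis section P2rx3 had the same reads as its neighbour Ssrp1. Scn9a, the sodium channel Nav1.7, was at -1.35 and Tacr2 among the lowest of all.

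Markers of the other tissues of a paw also differed within each list. In skin, Klf4, Krt10 and Tfap2c were at 1.58, 1.20 and 1.14 and Trp63, the factor of the basal layer, at 0.85 with 3102 against 1435 reads, and 3 of 13 epidermis genes were past 1 and none past -1. The other way, Krtdap, of keratinocyte differentiation, Dsp (desmoplakin) and Pkp1 (plakophilin) were at -0.59, -0.41 and -0.40. The summed level of all 13 epidermis genes was 17.9 in the arthritis section and 10.5 in the control section. In muscle, Casq1, the calcium store protein of fast fibres, had 507 against 6789 reads and a ratio of -3.87, whereas Atp2a1, the calcium pump of the same fibres, and Mylpf were at 1.70 and 1.48. In smooth muscle, Myh11 was at -2.47 and Cnn1 at 2.58. Of 16 endothelial genes, with a median of -0.01, Kdr, the endothelial VEGF receptor, was alone past the threshold. It had 168 against 920 reads and a ratio of -2.40, which was -1.75 without the 6 control columns. The adipocyte genes Slc2a4 and Pparg were at -2.32 and 1.18, and the nerve genes Ncam1, S100b and Erbb3 at 1.76, -1.46 and -1.43. Of 8 erythroid and marrow genes, with a median of 0.09, the erythropoietin receptor Epor was alone past the threshold, at -1.89. The part of tissue composition in any ratio was not tested.

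For limb position, Tbx4, the T-box gene of the hindlimb, was at 1.40 with 2332 against 721 reads and Tbx5, that of the forelimb, at -1.54 with 284 against 771 and -1.12 without the 6 control columns. The sources used here do not call the paws fore or hind, but place the sections at the talus, a bone of the hind ankle. Pitx1, which sets the hindlimb, was at 0.39 and Hoxc10 at 0.86. Of the 14 limb position genes in both tables, 6 lay above the median of all genes. The list median was -0.14, with 1 gene past 1 and 2 past -1, Tbx5 and Hoxc8, the latter at -5.67. For 3 genes of the Y chromosome, Ddx3y, Zfy2 and Uty, the ratios were 0.25, 0.22 and -0.17. Housekeeping genes also had ratios on both sides, from -1.85 for Rplp0, of the ribosome, and -1.15 for B2m to 1.98 for Polr2a, the large subunit of RNA polymerase II, with a median of 0.06 over 13 genes.

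Genes of brain neurons, listed as markers of another tissue, were read in both sections too. Their 15 members had a summed level of 19.6 in the arthritis section and 18.9 in the control section and a median of 39.9% and 43.1% of spots with a read. The lists for cell types of a paw had medians of 15.7% to 41.4% and 23.9% to 46.1% of spots, so this share did not set the labelled tissue apart. Slc17a7, a glutamate transporter of cortical neurons, was at 1.18 and Nrgn, neurogranin, at -1.48.

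Some genes lay on the same line of the array in both paws. Spots are named by an array row and an array column, and 324 positions were used by both sections. Of 5214 genes with at least 200 reads in each section, 70 had at least 3 times their share of reads on 1 of 48 array rows in each section, and for 38 of these it was the same row. For array columns, 1 gene met this in each section and none on the same column. Ccdc189, a coiled-coil gene, had 306 of its 437 arthritis reads and 146 of its 248 control reads on row 21. This was 15.4 and 14.9 times its share. Hsd3b4, a steroid dehydrogenase, had 151 of 357 and 74 of 239 reads on row 22. Row 56, with 6 spots in each section, alone held 19 of the 38 genes. Among them were Tmem8b, with 89 of 1321 and 207 of 1355 reads there, but also genes of few reads such as Tmbim4, with 8 of 323 and 18 of 271. Fos was enriched on row 13 in both, 4.90 and 3.81 times, with a ratio of 0.62 without that row, and Hoxd10 on row 32.

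**Figure D5:**
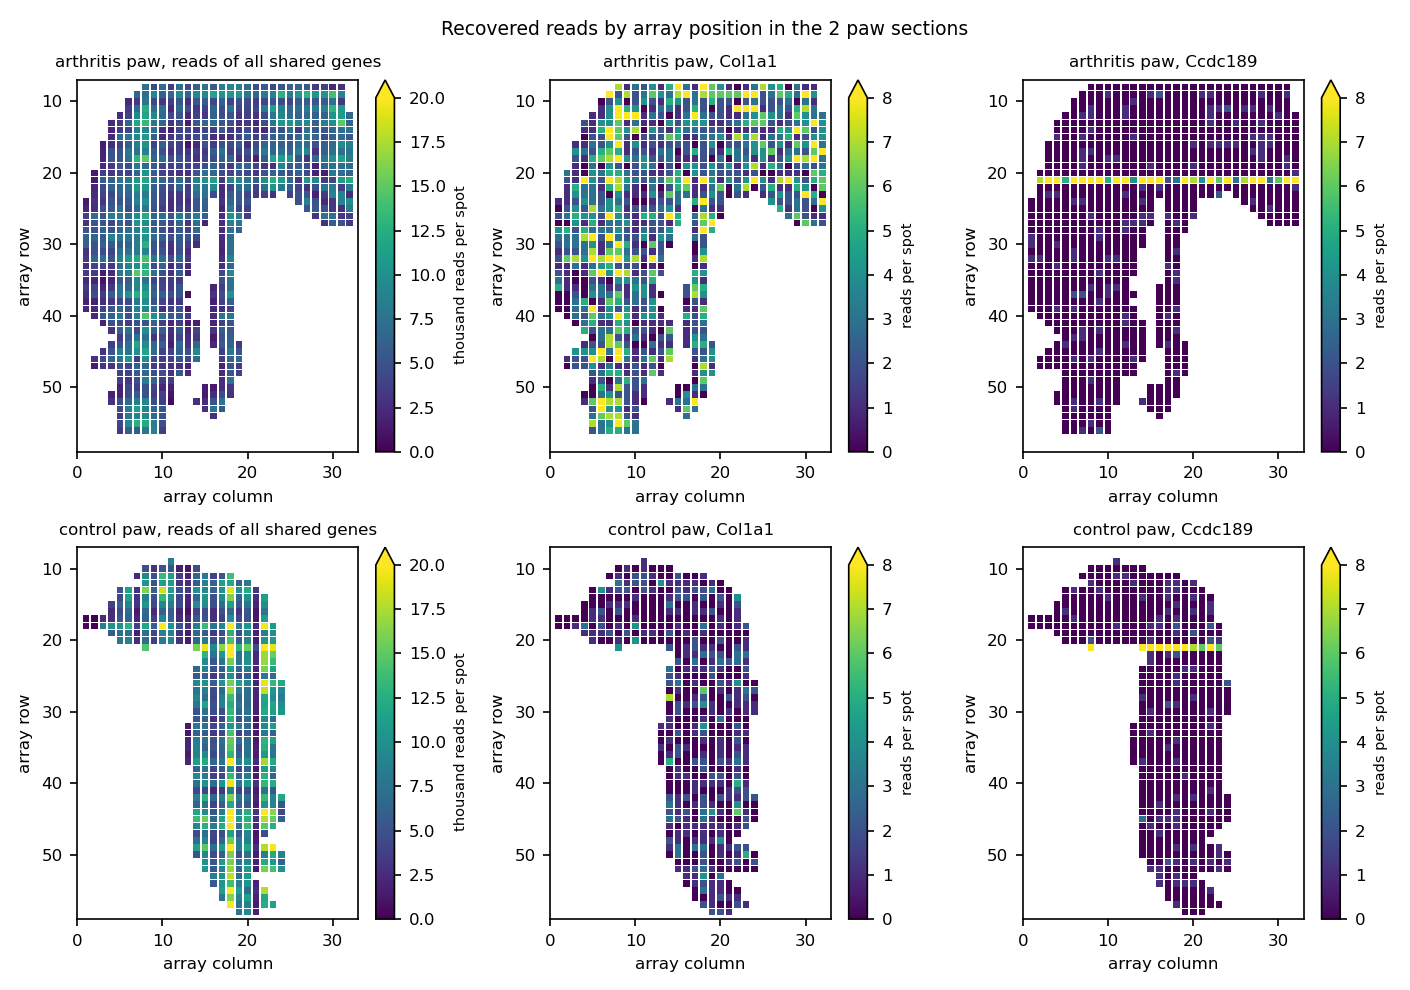
Recovered reads at each spot (colour, in reads, or for all genes in units of 1000 reads) by array column (horizontal) and array row (vertical) in the arthritis paw (upper panels, 943 spots) and the control paw (lower panels, 554 spots), for all shared genes, Col1a1 and Ccdc189. Col1a1 is spread over the arthritis section with no patch, and Ccdc189 lies along row 21 in both sections.

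The pattern held for whole rows in part. When each row's excess of each gene was correlated over the 5214 genes between the sections, 18 of 48 arthritis rows were most like the control row of the same number, with a median correlation of 0.03 and a highest of 0.33 between rows of the same number, and 0 of 24 columns were. Of the 38 genes, 3 were past the threshold with their row and 3 without it, and 1 changed the sign of its ratio when its row was left out. None was among the 30 extremes. The cause was not tested.

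The ratio differed little by chromosome and gene length. Median ratios ranged from 0.04 to 0.16 over 20 chromosomes, and were 0.13, 0.13 and 0.07 in the short, middle and long genes of 3 equal groups. Higher genes had a higher neighbour in 23.0% of cases, against 21.6% of all genes, and lower genes a lower neighbour in 17.6%, against 15.1%. Of higher genes with at least 1000 arthritis reads 16 of 554 shared reads with a neighbour, and of lower genes with at least 1000 control reads 44 of 412 did.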

How the data were processed

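The deposited files hold signal by gene (rows) and spot (columns), quantile-normalised by the authors: in each section all spots held the same sorted list times 1 factor per spot. The submitters' processing notes name MACS2, featureCounts and Bowtie2, and the builds mm9 and hg19, with versions, roles and the counting window not given in the sources used here. Ties had been broken by table order, and 46.7% (arthritis) and 52.2% (control) of deposited values above 0 belonged to genes without a read. Reads were therefore recovered from the tied ranks, where each fall of the table place marks 1 further read. The zone of exact numbers ended at the lowest count held by fewer than 5 genes, and a gene with over 10% of its reads beyond it was given as a lower bound. The recovered sums equalled the common list at 99.5% and 99.3% of ranks and held 95.4% and 92.9% of its total. The decoding was tested on simulated data.

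A gene's summed reads were divided by the mean sum of the shared genes, and the log2 ratio taken with a pseudocount of 0.1. A ratio of 1 or -1 was the threshold. Intervals are exact (Clopper-Pearson, 95%), cover counting error only and take the recovered sums as they stand, also where these are lower bounds. Genes named were the 15 highest and lowest ratios, list members past the threshold or with most reads, 5 genes of the control table alone and the Y genes; other list members and the genes on array rows were picked after their values were seen. The genes, lists and comparison were chosen with earlier results of these data known. Promoters were taken from RefSeq (GRCm38.p6). Only 79.1% of shared genes had one, so CpG content was not compared between groups of genes. A few genes named by this rule are not reported here. Alternatives are given in the closing section. Python 3.11.15, numpy 2.4.6, pandas 2.3.3 and scipy 1.17.1 were used.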

Additional observations from a re-analysis of the deposited data

Results flagged for a closer look

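Of the 8248 genes of the control table that the arthritis table did not hold, and which entered no comparison, the 5 with most control reads were at the top of the control section. Larp4, an RNA-binding protein, had 18882 reads, and Dram2, a membrane protein of autophagy, had 17923. Dnase1l1 had 15517 and H2ap, a histone variant of the testis, 13861, each the same to within 5% as its shared neighbours Taz and H2al3. Lnx2, a ubiquitin ligase that binds Numb, had 13795. All 5 sums were lower bounds, with 96.8% to 99.97% of their reads beyond the exact zone, so their order is not settled. Genes of the control table alone had a median of 77 control reads, and genes in both tables one of 211.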

How the results depend on the processing

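No paired analysis was possible because each group was 1 section. None of 112 genes named past the threshold changed sign under any of the 15 alternatives that gave it a value. These genes were picked for large ratios in the same reads, so their kept sign was close to fixed in advance and is no support for the ratios. Over genes at or above the median level 102 of them had a value, and 105 without genes that share a neighbour's reads. That last alternative and deposited values with equal spot totals were chosen after seeing the data. With a pseudocount of 1 the counts past the threshold fell to 486 higher and 428 lower genes, and 65 of the 112 stayed past it. From the share of spots with a read, 661 genes were higher. A list's median less that of all genes changed sign in 8 of 33 lists over genes at or above the median level and in 7 by deposited values. By share of spots and in odd columns it did so in 6 lists each. The following give this difference where it left its counting interval. With a pseudocount of 1, epidermis was at 0.14, neutrophil -0.18, B and plasma cell -0.16, tendon -0.25 and interferon 0.12. Over genes at or above the median level, neutrophil was at -0.87, macrophage 0.41, T and NK cell 0.53, B and plasma cell -0.79, synovial fibroblast -0.43, tendon -0.77, endothelial -0.92, mural 0.34, adipocyte -0.63, nerve -0.81, erythroid -0.51, interferon 0.0063, cytokines 0.79, chemokines 0.27, MHC class II 0.72, complement 0.43, pain 1.12, inflammasome 0.37 and limb position 0.046. This alternative drops the genes of lowest level from each list. By share of spots, synovial fibroblast was at -0.034 and tendon at -0.28. By deposited values tendon was at -0.73 and housekeeping at -0.38. Skeletal muscle was at -0.19 by the mean of spot shares and at -0.16 by deposited values with equal spot totals. In odd columns nerve was at 0.0060 and cytokines at 0.58. The cause was not tested beyond the genes each alternative leaves out. Depth limits the genes of low level, where a level of 0.1 stood for 48.0 reads in the arthritis and 40.5 in the control section.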
